A study of Mus musculus with 4 samples.

Results

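Matricellular and provisional matrix genes made up 10 of the 56748 genes in the deposited count table, namely Fndc1, the tenascins Tnc and Tnxb, the thrombospondins Thbs1, Thbs2 and Thbs3, Postn, Sparc, Vcan and Tgfbi. They encode matricellular and provisional matrix proteins and were chosen by gene symbol, with their levels in the saline and treated libraries already known, so the values of each gene between the groups are a description and carry no test. All 10 had enough counts to enter the fit, which covered 15167 genes. In 6 of the 10 genes (Fndc1, Vcan, Tnc, Thbs1, Thbs2 and Thbs3) both treated libraries lay below both saline libraries (27.8% of all tested genes). In the other 4 (Postn, Tgfbi, Sparc and Tnxb) the groups overlapped.

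Mouse 4T1 cells, a triple-negative breast cancer line carrying firefly luciferase, were injected through the tail vein of female BALB/cJ mice aged 7 weeks, and lung tissue bearing the metastases was sequenced after 3 weeks of treatment. The control mice received saline, which the sample labels call PBS. The treated mice received cmLumiOpto together with the PARP inhibitor olaparib at 50 mg/kg, a combination named cmLumiOpto/PARPi. cmLumiOpto is an adeno-associated vector inside exosomes that carry an antibody to CD276, in which a cfos promoter drives a luciferase (NLuc) and a light-gated channel (CoChR), joined by a 2A sequence so that they are made as separate proteins, and ViviRen, given at 2 mg/kg, is the substrate that makes the luciferase emit light. Each group had 2 libraries. Vector, substrate and olaparib were given together, so their shares in a difference cannot be told apart, and the labels name harvested tumour cells where the methods name lung tissue. The deposited values were read counts per gene, which summed to between 15263375 and 16755228 per library, and 3 counts corresponded to between 0.173 and 0.204 CPM, the count of a gene scaled by its library's total and TMM factor so that libraries can be compared. Such a floor covers counting error only. Nothing in the labels says more of the 2 libraries of a group than that they are separate samples, so p-values measure only the spread between these libraries.

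Matricellular proteins are secreted into the extracellular matrix but do not build its fibres. They bind collagens, growth factors and cell surface receptors, and their genes are typically low in resting adult tissue and high in development, wounds and tumour stroma. The provisional matrix is the loose, hydrated matrix laid down early in repair, rich in fibronectin, versican and hyaluronan. In the lung these genes are known mainly from fibroblasts, smooth muscle and macrophages, and several are also expressed by carcinoma cells.

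The stretches of 120 bases just upstream of the start site are shown for 4 of the lower genes and for Postn, whose groups overlapped. The promoters of lower genes and of an overlapping gene can thus be read side by side. They were taken from RefSeq windows of 300 bases on GRCm38.p6 (250 bases before and 50 after the start), which were found for 9 of the 10 genes, with Thbs1 the other. Capitals mark a TATA box, a GC box or a CCAAT box, with both strands searched. The Fndc1 stretch is chr17:7827303-7827422 (minus strand), that of Vcan is chr13:89742513-89742632 (minus), that of Tnc is chr4:64046937-64047056 (minus), that of Thbs2 is chr17:14694263-14694382 (minus) and that of Postn, the second of its 2 windows, is chr3:54360987-54361106 (plus).
Fndc1: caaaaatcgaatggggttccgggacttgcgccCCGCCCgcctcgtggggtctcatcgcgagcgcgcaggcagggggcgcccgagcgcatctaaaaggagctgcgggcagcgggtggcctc
Vcan: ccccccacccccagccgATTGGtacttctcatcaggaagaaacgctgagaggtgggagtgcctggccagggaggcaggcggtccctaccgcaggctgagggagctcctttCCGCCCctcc
Tnc: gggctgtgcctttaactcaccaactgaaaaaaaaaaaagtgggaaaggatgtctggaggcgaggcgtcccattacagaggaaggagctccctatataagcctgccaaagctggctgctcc
Thbs2: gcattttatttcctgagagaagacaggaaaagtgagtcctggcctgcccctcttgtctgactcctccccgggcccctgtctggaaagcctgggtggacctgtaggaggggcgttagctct
Postn: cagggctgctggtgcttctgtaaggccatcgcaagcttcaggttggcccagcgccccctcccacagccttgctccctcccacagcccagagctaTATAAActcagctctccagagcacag

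Over the whole windows, a TATA box (TATAAA on either strand) was found in Fndc1, Postn, Thbs2 and Tnc and in 13.6% of 32851 mouse windows of the same length. A gene is named if any of its windows held a match, while the shares over all mouse windows count windows. The 9 genes had 11 windows, with a second one for Postn and for Tnc. Of these 11, 5 held a TATA box, 6 a GC box and 4 a CCAAT box. In Postn its first base stood 26 bases upstream of the start, while in Fndc1, Thbs2 and Tnc every match lay outside the stretch shown. Only the exact letters TATAAA were searched, so variants such as tatataa near the end of the Tnc stretch were neither counted nor marked. A GC box (GGGCGG on either strand, so CCGCCC where the other strand holds it) was found in Fndc1, Tgfbi, Thbs3, Tnc and Vcan and in 35.7% of all windows. The CCAAT box, searched as those letters on either strand, was found in Postn, Thbs2, Thbs3 and Vcan and in 37.4% of all windows. In Postn it lay in the first window, 24 bases downstream of the start, and not in the window with the TATA box. The AP-1 motif (TGANTCA, which reads the same on both strands) was found in Tnxb and in 7.81% of all windows. The TEAD motif (GGAATG on either strand) was in none of these windows and in 14.7% of all, and no match of one motif overlapped a match of another. GC boxes stood in genes of both kinds, in Fndc1, Vcan, Tnc and Thbs3 with lower treated libraries and in Tgfbi with overlapping ones, and so did TATA and CCAAT boxes. A match of letters is a description of the sequence and not a binding site.

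Fndc1 and Vcan gave the largest differences among the 10 genes. Fndc1 (ENSMUSG00000071984, protein-coding) encodes a secreted protein with fibronectin type III domains and is a different gene from Fn1, which encodes fibronectin. Its position in the deposited table was chromosome 17, bases 7957401 to 8046134, on the minus strand. Fndc1 was at 80.7 and 59.3 CPM in saline replicates 1 and 2 and at 15.7 and 16.2 CPM in cmLumiOpto/PARPi replicates 1 and 2. Both treated libraries were far below both saline libraries and almost level with each other. The log2 fold change of Fndc1 (treated minus saline) was -2.14 ± 0.20 (SE, n = 2 libraries per group), and the treated mean was 22.8% of the saline mean. Vcan (chromosome 13, 89803431 to 89890628, minus strand) encodes versican, the large chondroitin sulphate proteoglycan that binds hyaluronan. Vcan was at 76.4 and 59.8 CPM in the saline libraries and at 20.9 and 33.0 CPM in the treated libraries. The groups did not overlap, and the higher treated library stood well under the lower saline library. Vcan thus had a log2 fold change of -1.34 ± 0.26, a treated mean of 39.6% of saline.

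**Figure D1:**
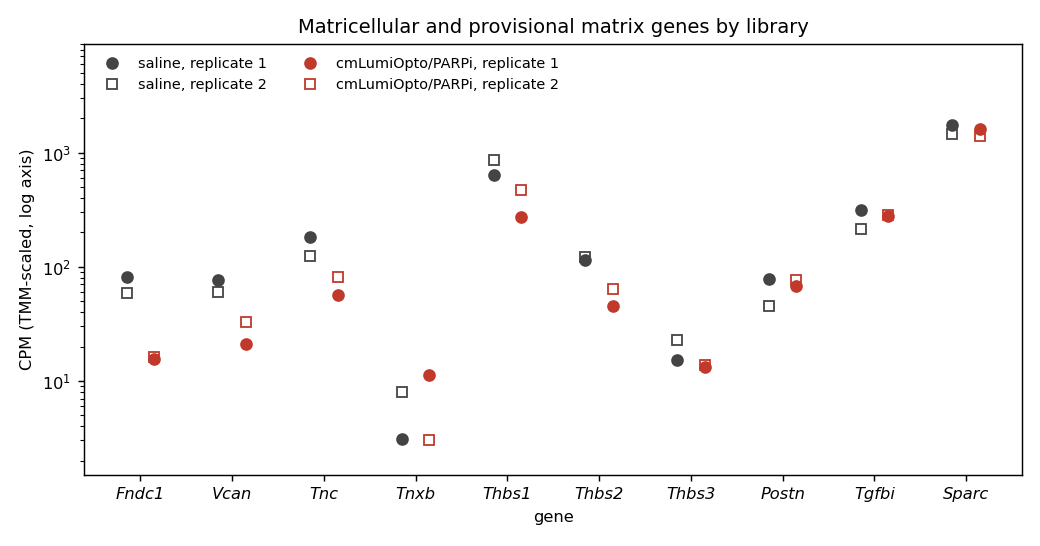
TMM-scaled CPM of each of the 10 genes on a log axis, with saline libraries in dark grey and cmLumiOpto/PARPi libraries in red, circles for replicate 1 and squares for replicate 2. Fndc1, Vcan, Tnc, Thbs1, Thbs2 and Thbs3 have both red points below both grey points, Fndc1 by the widest margin (15.7 and 16.2 against 80.7 and 59.3 CPM), while Sparc lies between 1412 and 1753 CPM in all libraries.

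The 2 tenascins differed in both level and pattern. Tnc (chromosome 4, 63878022 to 63965252, minus strand) encodes tenascin-C, a large glycoprotein that weakens cell adhesion and signals through integrins and TLR4. Tnc was at 183 and 125 CPM in the saline libraries and at 56.2 and 80.6 CPM in the treated libraries. The treated libraries were both lower, and the replicates of each group differed by over 1.4-fold (1.47 in saline, 1.43 in treated). Its log2 fold change was -1.17 ± 0.26, a treated mean of 44.3% of saline. Tnxb (chromosome 17, 34879431 to 34938789, plus strand) encodes tenascin-X, which ties collagen fibrils together in loose connective tissue. Tnxb was at 3.07 and 7.97 CPM in saline and at 11.3 and 3.01 CPM in the treated libraries. High and low libraries were found in each group, so the groups overlapped fully. The log2 fold change of Tnxb was 0.38 ± 0.72, and it was -0.87 without treated replicate 1 and -0.17 without saline replicate 1.

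Thrombospondins bind CD36, CD47 and integrins, and thrombospondin-1 can release active TGF-beta from its latent complex. Thbs1 (chromosome 2, 117942357 to 117957614, plus strand) was at 642 and 869 CPM in saline and at 273 and 472 CPM in the treated libraries. Both treated libraries were below both saline libraries, although treated replicate 2 was 1.73 times treated replicate 1. Thbs1 had a log2 fold change of -1.02 ± 0.30, a treated mean of 49.3% of saline. Thbs2 (chromosome 17, 14885762 to 14914497, minus strand), a related trimeric thrombospondin that limits blood vessel growth, was at 115 and 121 CPM in saline and at 45.3 and 63.8 CPM in the treated libraries. The 2 saline libraries were nearly equal and both treated libraries were well under them. For Thbs2 the log2 fold change was -1.11 ± 0.19, a treated mean of 46.3% of saline. Thbs3 (chromosome 3, 89122487 to 89134144, plus strand) belongs to the pentameric thrombospondins, which bind calcium and lack the type 1 repeats of Thbs1 and Thbs2. It was at 15.1 and 23.0 CPM in saline and at 13.1 and 13.9 CPM in the treated libraries. The treated libraries were lower, but saline replicate 1 stood only just above them. For Thbs3 the log2 fold change was -0.50 ± 0.26, and it was -0.18 without saline replicate 2.

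Counts set against each other within a library do not depend on how libraries are scaled. Thbs1 had 560.2 and 717 counts per 100 counts of Thbs2 in saline and 603 and 739 in the treated libraries, and these ranges overlapped. Thbs2 had 758 and 526 counts per 100 counts of Thbs3 in saline and 345 and 459 in the treated libraries, both lower. Thbs1 and Thbs2 thus kept overlapping proportions to each other in the 2 groups, while Thbs2 was lower against Thbs3 in the treated libraries.

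Postn, Tgfbi and Sparc showed no such separation. Postn (chromosome 3, 54268530 to 54298458, plus strand) encodes periostin, a collagen-binding protein of fibroblasts that is known for its part in metastatic niches. Postn was at 78.2 and 45.2 CPM in saline and at 68.3 and 77.2 CPM in the treated libraries. Both treated libraries fell between the saline libraries. For Postn the log2 fold change was 0.24 ± 0.27, and it ranged from -0.12 to 0.67 when 1 library was left out. Tgfbi (chromosome 13, 56757336 to 56787375, plus strand), named for its induction by TGF-beta, encodes a protein with the same fasciclin domains as periostin. Tgfbi was at 312 and 214 CPM in saline and at 279 and 284 CPM in the treated libraries, again with both treated libraries between the saline libraries. Its log2 fold change was 0.10 ± 0.21. Tgfbi had 399 and 473 counts per 100 counts of Postn in saline and 409 and 367 in the treated libraries, an overlapping range.

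Sparc (chromosome 11, 55285326 to 55314009, minus strand) encodes osteonectin, a collagen-binding protein that many mesenchymal and tumour cells secrete. It was at 1753 and 1468 CPM in saline and at 1609 and 1412 CPM in the treated libraries. The groups overlapped and no library stood apart. The log2 fold change of Sparc was -0.09 ± 0.18. Set against Sparc in the same library, Fndc1, Vcan, Tnc, Thbs1 and Thbs2 had both treated libraries below both saline libraries, while Thbs3 overlapped. Sparc is itself one of the 10 chosen genes and differed little between the groups. Counts set against it thus largely repeat the CPM values and are no separate support. Vcan had 4.36 and 4.07 counts per 100 counts of Sparc in saline and 1.30 and 2.33 in the treated libraries. Tnc had 10.5 and 8.52 counts per 100 counts of Sparc in saline and 3.49 and 5.71 in the treated libraries. Thbs3 had 0.862 and 1.57 in saline and 0.816 and 0.984 in the treated libraries, so its place below the saline libraries held on the CPM scale and not against Sparc.

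The order of levels between genes was read per kilobase of gene length, on the mean CPM per kilobase of each group. In saline, Sparc was highest at 425 CPM per kilobase, followed by Thbs1 at 124, Tgfbi at 69.7 and Tnc at 19.8. Thbs2 came next at 16.8, then Fndc1 and Postn at 7.09 each, Vcan at 4.71, Thbs3 at 3.95 and Tnxb at 0.41. The libraries of neighbours overlapped between Tnc and Thbs2, Fndc1 and Postn, Postn and Vcan, and Vcan and Thbs3, so those pairs cannot be ordered beyond their spread. In the treated libraries Sparc remained highest at 399 CPM per kilobase and Tnxb lowest at 0.53. Thbs1, at 61.3, stood next to Tgfbi at 74.6, with overlapping libraries. Postn was at 8.36, with libraries that overlapped those of Tnc at 8.80 and Thbs2 at 7.79. Thbs3 was at 2.80, and below it Vcan at 1.86 and Fndc1 at 1.61 overlapped each other. Fndc1 thus stood level with Postn in saline and below all libraries of Postn in the treated group.

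As counts over the list, 6 of 10 genes had both treated libraries below both saline libraries, which was the case for 27.8% of all 15167 tested genes, and 0 of 10 had both above, against 27.4% of all tested genes. No gene of the 10, and 0.0% of all tested genes, had an adjusted p under 0.05 by edgeR's quasi-likelihood test, for which the smallest adjusted p of any gene was 0.138. At an unadjusted p under 0.05 by the same test there were 5 of the 10 genes lower (12.0% of all tested genes) and 0 higher (9.21%). By DESeq2, with an adjusted p under 0.05, the lower genes were the same 5, Fndc1, Thbs1, Thbs2, Tnc and Vcan (4.27% of all tested genes), and 0 were higher (2.06%). Since these libraries were in view when the genes were chosen, nothing is read from the shares. The median log2 fold change of the 10 genes was -0.76, beside 0.02 over all tested genes. With 2 libraries against 2, an exact two-sided permutation test of a single value cannot give a p below 0.333.

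Gene length moved with the difference between the groups across the whole table. When the tested genes were split by length into 5 equal groups, the shortest group had a median of 0.31 on the log2 scale and the longest one of -0.27, and the share of genes with both treated libraries below both saline libraries went from 9.03% to 53.5%. Of the 10 genes, 5 (Fndc1, Vcan, Tnc, Postn and Tnxb) were in the longest group, 2 (Thbs1 and Thbs2) in the next and 3 (Sparc, Tgfbi and Thbs3) in the middle group. After a loess curve over gene length and level was subtracted, the log2 fold change was -1.88 for Fndc1, -0.97 for Vcan, -0.87 for Tnc, -0.86 for Thbs2 and -0.70 for Thbs1. These 5 genes remained below zero by a smaller amount, and Thbs3 was at -0.56. The corrected log2 fold change was 0.52 for Postn, 0.21 for Tgfbi, 0.43 for Tnxb and 0.06 for Sparc, which turned sign. The corrected median was -0.63 over the 10 genes and -0.02 over all tested genes. The part of gene length in these differences was not tested further.

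**Figure D2:**
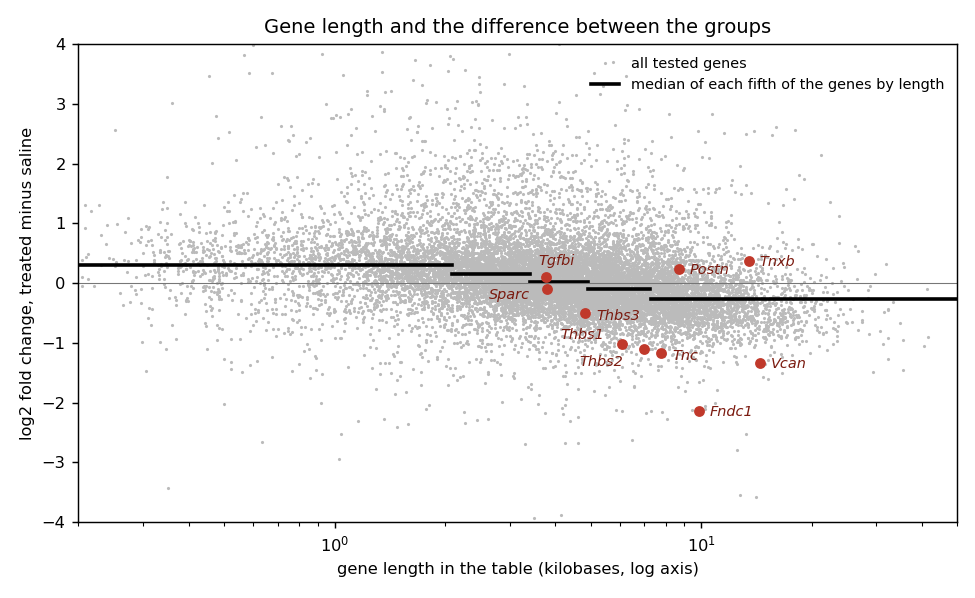
Gene length in kilobases (log axis) against the log2 fold change, treated minus saline, with tested genes in grey (a few lie beyond the axes), the median of each of 5 equal groups of genes by length as a black line and the 10 genes in red. The black lines step down from 0.31 to -0.27 with length, and Fndc1 (-2.14), Vcan (-1.34) and Tnc (-1.17) lie below the line of the longest group while Postn (0.24) and Tnxb (0.38) lie above it.

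**Figure D3:**
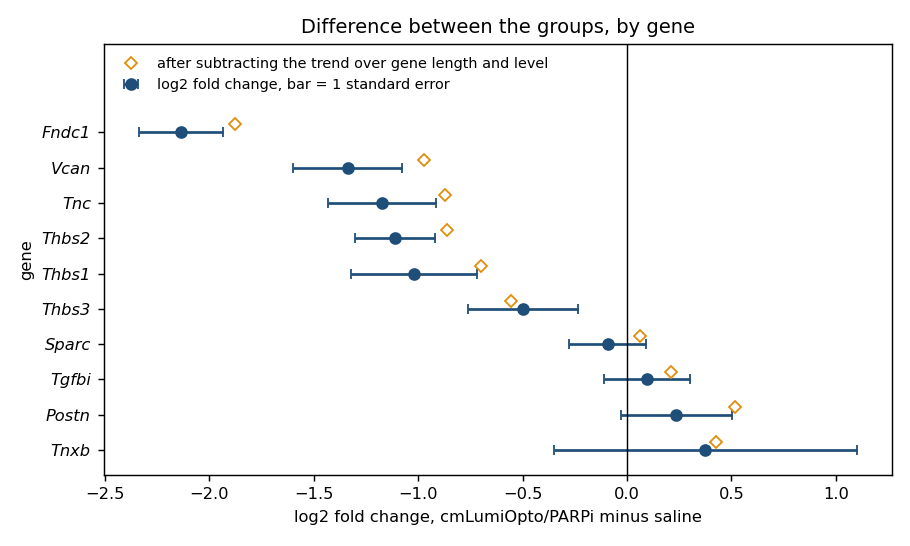
Log2 fold change of each gene, cmLumiOpto/PARPi minus saline, with bars of 1 standard error (circles) and the value after the trend over gene length and level was subtracted (open diamonds). Fndc1 is farthest from zero on both scales (-2.14 and -1.88), and the bars of Sparc, Tgfbi, Postn and Tnxb cross zero.

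Other secreted matrix proteins of the same families were counted from a list of 32 genes, of which 16 entered the fit. In 5 of the 16 both treated libraries were below both saline libraries (27.8% of all tested genes) and in 1 both were above (27.4%). The median log2 fold change was -0.44, and it was -0.18 without treated replicate 1 and -0.19 without saline replicate 2. By DESeq2 4 of the 16 were lower (4.27% of all tested genes) and 0 were higher with an adjusted p under 0.05, and by edgeR there were 0 with an adjusted p under 0.05 and 4 lower with an unadjusted p under 0.05 (12.0%). Fn1, fibronectin itself and the core of the provisional matrix, was at 11356 and 12149 CPM in saline and at 4814 and 7329 CPM in the treated libraries, with no overlap. For Fn1 the log2 fold change was -0.95 ± 0.27, and after correction for length and level it was -0.33. Fstl1, a secreted relative of Sparc, had a log2 fold change of -0.74 ± 0.16, and Ccn4, a matricellular protein of the CCN family, one of -0.86 ± 0.21. Spp1, which encodes osteopontin, was at 4721 and 5655 CPM in saline and at 5679 and 8174 CPM in the treated libraries, both higher, with a log2 fold change of 0.42 ± 0.26. Spock2, a testican of the Sparc family with a log2 fold change of 0.90 ± 0.47, and Ccn3, with one of 0.98 ± 0.59, had overlapping groups.

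Among 19 receptors of these proteins, all of which entered the fit, 10 had both treated libraries below both saline libraries (27.8% of all tested genes) and 1 had both above (27.4%). The median log2 fold change was -0.25, or -0.17 after correction for length and level, and it was -0.41 without saline replicate 1. DESeq2 gave 4 lower (4.27% of all tested genes) and 0 higher with an adjusted p under 0.05, and edgeR 0 with an adjusted p under 0.05 and 6 lower with an unadjusted p under 0.05 (12.0%). Itga5, the alpha chain of the main fibronectin receptor, was at 181 and 191 CPM in saline and at 99.6 and 112 CPM in the treated libraries. Its log2 fold change was -0.82 ± 0.14. Lrp1, the endocytic receptor that clears thrombospondins, had a log2 fold change of -1.20 ± 0.23, and Stab1, a scavenger receptor that takes up osteonectin, one of -0.60 ± 0.13. Their values after correction for length and level were -0.55 and -0.21. Itgb6, an epithelial integrin chain that binds fibronectin and activates TGF-beta, was at 8.91 and 3.07 CPM in saline and at 16.9 and 10.5 CPM in the treated libraries. It was the 1 receptor with both treated libraries above both saline libraries, with a log2 fold change of 1.19 ± 0.53. Itga8 and Cd36 had log2 fold changes of 1.26 ± 0.57 and 1.62 ± 0.76 and overlapping groups.

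Enzymes that cleave versican, tenascin or their partners were counted from 14 genes, 11 of them in the fit. In 5 both treated libraries were below both saline libraries (27.8% of all tested genes) and in 0 both were above (27.4%), and the median log2 fold change was -0.41, or -0.20 after correction for length and level. The same number, 5, were lower with an adjusted p under 0.05 by DESeq2 (4.27% of all tested genes) and with an unadjusted p under 0.05 by edgeR (12.0%), which gave 0 with an adjusted p under 0.05. Mmp2, the gelatinase of stromal cells, was at 180.5 and 118 CPM in saline and at 35.3 and 54.3 CPM in the treated libraries. Its log2 fold change was -1.74 ± 0.29, and its corrected value was -1.73. Adamts1, a versican-cleaving protease, had a log2 fold change of -1.19 ± 0.14, and Adamts9, of the same family, one of -0.74 ± 0.17. Adamts8, Adamts5 and Adamts15 had overlapping groups and log2 fold changes of 0.21 ± 0.31, 0.25 ± 0.44 and 0.24 ± 0.47.

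All 15 genes of the TGF-beta axis, the pathway that induces several of the 10 genes, had a negative log2 fold change before correction for length and level, after which Tgfbr1, Ltbp2 and Tgfb1 were at or above zero (0.13, 0.05 and 0.00), and in 12 both treated libraries were below both saline libraries (27.8% of all tested genes). DESeq2 gave 7 lower (4.27% of all tested genes) and 0 higher with an adjusted p under 0.05, and edgeR 0 with an adjusted p under 0.05 and 10 lower with an unadjusted p under 0.05 (12.0%). The median log2 fold change was -0.64 and moved to -0.28 after correction for length and level. Smad3, which carries the signal to the nucleus, was at 301 and 365 CPM in saline and at 131 and 187 CPM in the treated libraries, and its log2 fold change was -1.06 ± 0.22. Ltbp4, which tethers latent TGF-beta to the matrix, had one of -0.83 ± 0.16, and the ligand Tgfb2 one of -0.89 ± 0.19.

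Of 15 genes that make or handle hyaluronan and chondroitin sulphate, the sugar chains that versican binds or carries, 7 had both treated libraries below both saline libraries (27.8% of all tested genes) and 3 had both above (27.4%). The median log2 fold change was -0.35. DESeq2 gave 1 lower (4.27% of all tested genes) and 0 higher with an adjusted p under 0.05, and edgeR 0 with an adjusted p under 0.05 and 5 lower with an unadjusted p under 0.05 (12.0%). The chondroitin-polymerising genes Chpf2, Chsy1 and Chpf had log2 fold changes of -0.99 ± 0.19, -0.50 ± 0.13 and -0.41 ± 0.13. Csgalnact2, which starts chondroitin chains, had one of 0.35 ± 0.15 and the hyaluronidase Hyal1 one of 0.87 ± 0.43, both with higher treated libraries. Hyal2 had one of 0.29 ± 0.24 with overlapping groups.

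**Figure D4:**
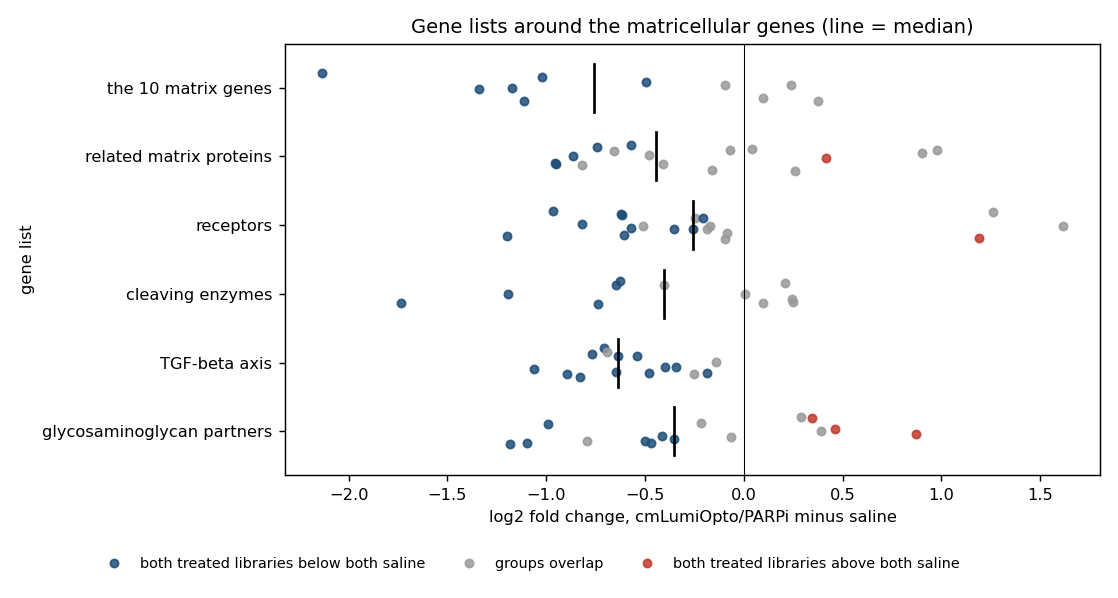
Log2 fold change, cmLumiOpto/PARPi minus saline, of the tested genes in each list (1 point per gene, vertical jitter only), coloured by whether the libraries of the groups overlapped, with the median as a black line. The medians are -0.76 for the 10 matrix genes, -0.44, -0.25 and -0.41 for related matrix proteins, receptors and cleaving enzymes, and -0.64 and -0.35 for the TGF-beta axis and the glycosaminoglycan partners.

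Cell type markers moved between the same libraries, and in bulk tissue fewer cells of a type and less RNA per cell cannot be told apart. Of 14 fibroblast markers, 8 had both treated libraries below both saline libraries (27.8% of all tested genes) and 5 had both above (27.4%). Their summed CPM was 3654 to 5311 in saline and 2097 to 2244 in the treated libraries, and the 3 collagen genes Col1a1, Col1a2 and Col3a1 made up most of it (88.9% in saline replicate 1). Without these 3, a split chosen after the values were seen, the other 11 markers summed to 589 and 491 CPM in saline and to 837 and 465 CPM in the treated libraries, which overlapped, with 5 markers lower and 5 higher in both treated libraries. Col1a1, the main fibril collagen chain, was at 2064 and 1377 CPM in saline and at 455 and 572 CPM in the treated libraries, and Pdgfra, a receptor of most lung fibroblasts, had a log2 fold change of -0.72 ± 0.14. Tcf21 and Inmt, genes of resident lung fibroblasts, went the other way, with log2 fold changes of 2.61 ± 0.86 and 2.76 ± 0.92. The treated libraries of these genes lay far apart, at 21.01 and 5.23 CPM for Tcf21 and at 420.6 and 106.9 CPM for Inmt. Dpt was also higher in both treated libraries (1.82 ± 0.39), while Dcn (-0.53 ± 0.24) and Lum (-2.29 ± 0.76) were lower in both. Smooth muscle and pericyte markers summed to 211 to 245 CPM in saline and 182 to 224 CPM in the treated libraries, and macrophage markers to 1627 to 1874 and 1467 to 1898 CPM. Their ranges overlapped. Epithelial keratin and adhesion genes of 4T1 carcinoma summed to 3208 to 3517 CPM in saline and 2873 to 3975 CPM in the treated libraries, and Krt8, Krt18 and Epcam were present in all libraries.

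Most listed genes of the normal lung epithelium were higher in both treated libraries. The exceptions were Abca3 of the alveolar type 2 list, which was lower in both (147 and 129 CPM in saline, 125 and 94.0 CPM in the treated libraries), and Clic5 and Tubb4b, whose groups overlapped. The alveolar type 2 list summed to 422 to 1628 CPM in saline and 2815 to 7954 CPM in the treated libraries. In 5 of its 6 genes both treated libraries were above both saline libraries (27.4% of all tested genes). The airway list summed to 463 to 1512 and 3366 to 6043 CPM, also with 5 of 6, and the alveolar type 1 list to 409 to 566 and 699 to 1113 CPM, with 5 of 6. Saline replicate 2 had the lowest sum and treated replicate 1 the highest in each of these 3 lists. Among the 10 genes, Thbs1 and Vcan were lowest in treated replicate 1, as were Tnc and Thbs2, while Fndc1 and Thbs3 were nearly equal in the 2 treated libraries. Tnxb was highest in treated replicate 1 (11.3 CPM), and Sparc was higher there than in treated replicate 2 (1609 and 1412 CPM). Postn and Tgfbi were lowest in saline replicate 2. In saline, replicate 1 was above replicate 2 for Tnc (183 and 125 CPM), Vcan (76.4 and 59.8) and Fndc1 (80.7 and 59.3). It was below replicate 2 for Thbs1 (642 and 869) and Thbs2 (115 and 121). Endothelial markers summed to 481 to 615 CPM in saline and 484 to 900 CPM in the treated libraries, and mesothelial markers to 144 to 236 and 223 to 262 CPM. Platelet markers summed to 15.2 to 29.4 CPM in saline and to at most 46.8 CPM in the treated libraries, with overlap, neutrophil markers to 469 to 1128 and 746 to 1436 CPM, T cell markers to 19.1 to 48.0 and 28.5 to 97.4 CPM, and cardiac muscle markers to 90.8 to 100.3 and 65.2 to 152 CPM. The defining cartilage markers Matn1 and Acan were at 0 in all libraries and Col2a1 was at 0.241 CPM or less, and no other defining marker was at 0 in any library. The part of fibroblast or lung epithelial content in the differences of the 10 genes was not tested.

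**Figure D5:**
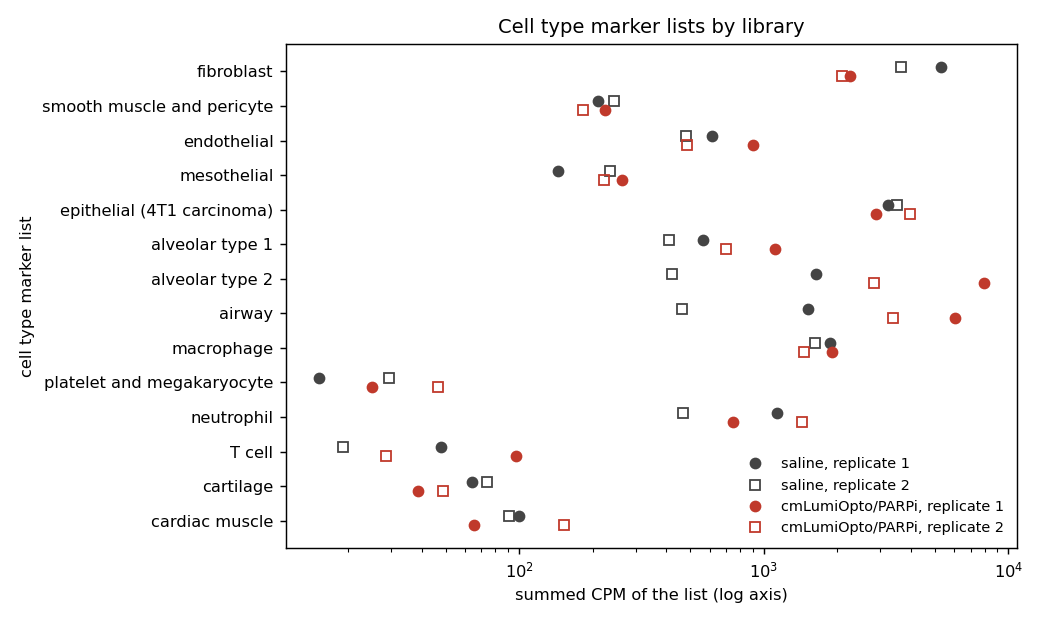
Summed CPM of each cell type marker list per library on a log axis, with saline in dark grey and cmLumiOpto/PARPi in red, circles for replicate 1 and squares for replicate 2. The fibroblast sum, most of it from 3 collagen genes, is lower in both treated libraries (2097 to 2244 against 3654 to 5311 CPM) and overlaps without those genes, the alveolar type 1, alveolar type 2 and airway lists are higher in both, and the macrophage and epithelial (4T1 carcinoma) lists overlap.

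Exons of 4 of the 10 genes overlapped a gene on the opposite strand in the GENCODE M21 annotation of GRCm38, and the sources do not say whether counting used the strand, so reads in those bases cannot be told apart. The shared bases were 318 of Thbs3 with Mtx1 (6.59% of its exon bases), 208 of Thbs1 with Gm29233 (3.42%), 176 of Tnc with 8030451A03Rik (2.26%) and 3 of Tnxb with Cyp21a2-ps. No exon of the other 6 genes, Fndc1, Vcan, Thbs2, Postn, Tgfbi and Sparc, overlapped another gene there.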

How the data were processed

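RNA of lung tissue with 4T1 metastases was sequenced in 2 saline and 2 cmLumiOpto/PARPi libraries after poly-A selection. The authors mapped the reads with HISAT2 and deposited raw read counts per gene, with positions and lengths, and the counting tool is not given in the sources used here. The submitters' processing notes name mm39 and the methods GRCm38. Only 2.92% of the 52125 table genes found in GENCODE M21 (GRCm38) had the same position there, so positions of genes are those of the table and promoter positions those of RefSeq on GRCm38.p6.

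From the counts, genes passing filterByExpr (minimum count 10) were fitted in edgeR 4.0.16 (R 4.3.3) with TMM scaling, glmQLFit and glmQLFTest, group as the term and Benjamini-Hochberg adjustment over all 15167 tested genes (threshold 0.05). CPM used TMM-scaled library sizes, and the standard error was the log2 fold change divided by the square root of F. A loess curve (span 0.5) over log2 gene length and mean log2 CPM gave the corrected values. Alternatives were DESeq2 1.42.0, other scaling, no filter, the other quasi-likelihood option, the replicate block and leaving out each library. The fits were tested on simulated counts.

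The 10 genes and all lists were chosen with earlier results of these data known. Named genes were the 10 members and, per list, up to 3 genes in each direction with the smallest unadjusted p. Cell type markers named were chosen after their values were seen. Columns of all samples in the table were used.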

Additional observations from a re-analysis of the deposited data

How the results depend on the processing

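Of 120 log2 fold changes of the 10 genes under the alternatives, 113 kept their sign and 11 moved by more than the pooled SD of the gene. The number of genes with both treated libraries below both saline libraries was 6 under the other scalings. It was 6 to 9 when 1 library was left out, but it cannot fall then, because fewer libraries have to lie apart. Nothing is read from that range. The median log2 fold change ranged from -0.98 to -0.52 when 1 library was left out, and it stayed negative under every alternative tried. The number of genes in the whole table with an adjusted p under 0.05 was 0 with edgeR, 2000 without a filter on low counts, 965 of 14586 genes with DESeq2 and 0 to 31 when 1 library was left out (31 without saline replicate 1, 9 without saline replicate 2, 2 without treated replicate 1 and 0 without treated replicate 2). Among those calls Fndc1, Thbs1, Thbs2, Tnc and Vcan were found without the filter and with DESeq2, and Fndc1 without either saline replicate. With 1 library left out, the lone library was assumed to vary like the other group. The cause of the changes in number was not tested.

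With the replicate number as a replicate block, 1822 genes had an adjusted p under 0.05 (1070 lower, 752 higher), Fndc1, Thbs1, Thbs2, Tnc and Vcan among them. Libraries with the same number come from different mice, and the sources do not say whether they share a batch or day. Whether the number pairs them is thus not known, and there are only 2 pairs. Deviations from the group means in saline replicate 1 and treated replicate 1 had a Spearman rho of 0.298 across genes, which are not independent replicates. A positive value means that libraries with the same number deviated in the same direction. With 2 libraries per group, replicate 2 mirrors replicate 1 and adds nothing.

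When 1 library was left out, the log2 fold change of Tnxb ranged from -0.87 (without treated replicate 1) to 1.20 (without saline replicate 2). The median of the smooth muscle and pericyte list, 0.04 with all libraries, ranged from -0.34 without treated replicate 1 to 0.32 without saline replicate 2, and was -0.25 without saline replicate 1. That of the mesothelial list, 0.80 with all libraries, ranged from -0.60 without treated replicate 1 to 1.57 without treated replicate 2. Sparc turned from -0.09 to 0.070 with the length correction and the replicate block. Among the 10 genes, the spread between the 2 treated libraries went from 1.02-fold for Tgfbi to 3.64-fold for Tnxb. How far depth limits these values was not tested.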
